A study of Mus musculus with 20 samples.

Results

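Hematopoietic stem cells (HSCs) of mice given 4 cycles of fluorouracil (5FU), called 4x, were compared with HSCs of mice given 2 cycles, called 2x, to ask whether DNA methylation takes a step between these treatments. The comparison held 10 of the 20 samples of the series, 6 of 2x and 4 of 4x. Methylation was measured by reduced representation bisulfite sequencing (RRBS) as the percent of methylated CpG calls in bins of 100 base pairs (bp). The main set was 101562 of the 1201951 deposited bins. A bin entered it if it was autosomal, if its values differed among the 2x samples and among the 4x samples, and if no value other than 0 or 100 occurred more than once within either group, because a repeated value can be a filled one. The samples themselves were chosen by their labels alone, not by any measured value.

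All groups were C57BL/6 mice per the labels (C57BL/6J in the study's methods), young adult females at the start per the study's methods. 5FU was injected into the peritoneum at a low dose at regular intervals, and HSCs were sorted about a month after the last cycle. As reference served 0x, without 5FU (4 samples), and 10x, with 10 cycles (6 samples). The labels give the tissue as blood and the cell type as HSC, whereas the methods describe sorting from bone marrow on stem cell surface proteins. Neither states that each sample came from a separate mouse, so a p-value here covers the spread of these samples alone, and that spread may be technical.

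DNA methylation at CpG sites is copied to the new strand at each cell division by the maintenance methyltransferase Dnmt1, and errors of copying or active removal by the Tet enzymes change the pattern over successive divisions. CpG-rich promoters are mostly unmethylated, while introns and intergenic DNA are mostly methylated. 5FU blocks thymidylate synthesis and kills dividing blood progenitors, so the surviving HSCs, most of which are usually at rest, divide to refill the marrow.

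No read coverage was at hand, so the depth behind each value is unknown. The share of values at exactly 0 or 100 in the main set differed between samples. It ranged from 52.4% to 63.7% in 2x, and in 4x it was 35.0%, 12.1%, 55.8% and 54.1% in replicates 05, 06, 19 and 20. Thus 4x replicates 05 and 06 both lay below all other samples, 06 the furthest. The 2x replicates 03 and 04, which like them are numbered within 01 to 12, were at 61.8% and 63.1%. In bins of the main set the median standard deviation (SD) was 8.99 percentage points over the 2x samples and 5.00 over the 4x samples, and 2x had the larger SD in 70.3% of bins. The mean correlation across bins was 0.835 over the 15 pairs of 2x samples, 0.921 over the 6 pairs of 4x samples and 0.877 over the 24 pairs of a 2x and a 4x sample. As a check of the cell type, promoters of the HSC marker genes, read over all deposited bins with filled values included, were mostly unmethylated. Of 10 such genes 9 had promoter bins, and 7 of the 9 lay under 20% in 2x and 8 in 4x. Of 14 marker genes of other blood cells 13 had promoter bins, and 4 lay under 20% in 2x and 4 in 4x, with the T cell genes Cd3e and Cd3g at 100% in both.

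In the main set 2 bins differed between 4x and 2x after correction over all bins (limma's moderated test, Benjamini-Hochberg adjusted p under 0.05 and a difference of at least 10 percentage points). They were 0.00197% of the bins tested, and both were less methylated in 4x. The count depended on which bins were tested. It was 9780 with repeated values set to missing, 9781 without the demand that values differ within each group, 2009 in bins chosen by 0x and 10x alone and 101028 in all deposited autosomal bins that vary, filled values included. The sequences of both bins are shown as those called, with the bin next to the second one, which differed the other way. They are the plus strand of mm10 (RefSeq GRCm38.p6), with each CpG, the measured site, in capitals.
chr7:123472900-123472999, near Aqp8: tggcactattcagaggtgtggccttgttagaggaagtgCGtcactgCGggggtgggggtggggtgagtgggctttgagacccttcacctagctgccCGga
chr14:72470900-72470999, near Gm9195: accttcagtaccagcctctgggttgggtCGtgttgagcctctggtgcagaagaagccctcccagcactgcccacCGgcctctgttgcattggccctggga
chr14:72471000-72471099, the adjacent bin: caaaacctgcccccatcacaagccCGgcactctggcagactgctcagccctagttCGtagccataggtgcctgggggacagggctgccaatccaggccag

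The bin at chr7:123472900-123472999 is intergenic, holds 3 CpGs and lies 10656 bp downstream of the start of Aqp8, which encodes a water channel. The 2x samples measured 93.4%, 100%, 100%, 100%, 100% and 78.7%, and the 4x samples 26.3%, 18.8%, 25.4% and 23.5%. The groups did not overlap, and the mean fell from 95.3% ± 8.58 (SD, n = 6) to 23.5% ± 3.37 (SD, n = 4), a difference of -71.9 points (SE 4.44, limma adjusted p = 0.00442). The mean was 66.8% in 0x and 65.4% in 10x, between the 2x and 4x means, though the 0x values include a repeated one. Both other bins deposited within 500 bp were at 100% throughout 2x, with 4x means of 100% and 92.3%.

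The bin at chr14:72470900-72470999 is intergenic, holds 2 CpGs and lies 9296 bp upstream of the predicted gene Gm9195. The 2x samples measured 92.2%, 100%, 88.1%, 100%, 87.5% and 100%, and the 4x samples 45.9%, 29.6%, 36.1% and 28%. The groups did not overlap, and the mean fell from 94.6% ± 6.09 (SD, n = 6) to 34.9% ± 8.13 (SD, n = 4), a difference of -59.7 points (SE 4.35, limma adjusted p = 0.00948). The adjacent bin at chr14:72471000-72471099 differed the other way. Its mean was 15.3% ± 25.9 (SD, n = 6) across 2x against 73.6% ± 18.3 (SD, n = 4) across 4x, a difference of 58.3 points that did not pass the correction (limma adjusted p = 0.926), and 2x replicate 17 at 66.7% lay among the 4x samples. In both bins the 0x and 10x means lay between those of 2x and 4x: 48.3% and 51.0% in the first, 58.9% and 58.7% in the adjacent one. Within the label series numbered 01 to 12 (2 samples a group) the 2 called bins differed by -74.2 and -58.3 points, and within the series 13 to 34 (4 and 2 samples) by -70.2 and -61.9 points. With log2 ratios of the percents, or with a variance trend in limma, 0 bins were called. With all 4 groups in one fit 3 were called, 1 of them among these 2, and in bins without repeated values in all 4 groups 1 was called. The count was 1 without 2x replicate 03, 6 without 2x replicate 18 or 4x replicate 06, 7 without 4x replicate 19, 8 without 2x replicate 15, and 9 without 2x replicate 17 or 4x replicate 20.

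The next 10 bins by p that differed by at least 10 points without overlap of the samples were not called, and 6 of them were more methylated in 4x and 4 less. Among all bins tested, 338 differed by at least 10 points without overlap, 0.333% of the main set, of which 156 were higher and 182 lower in 4x. The intron bins of Tmem132b and near Gm22606, with the neighbor of the latter, are printed next as bins nearly free of methylation in 2x, with the CpGs in capitals on the plus strand of mm10.
chr5:125534600-125534699, Tmem132b intron: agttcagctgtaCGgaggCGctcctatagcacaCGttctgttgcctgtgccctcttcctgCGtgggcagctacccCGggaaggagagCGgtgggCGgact
chr2:79370800-79370899, near Gm22606: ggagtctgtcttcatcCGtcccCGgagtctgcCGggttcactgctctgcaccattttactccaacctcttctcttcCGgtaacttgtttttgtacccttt
chr2:79370700-79370799, the adjacent bin: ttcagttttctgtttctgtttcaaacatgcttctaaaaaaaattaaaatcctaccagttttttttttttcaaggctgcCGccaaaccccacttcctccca

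In the Tmem132b intron bin, with 7 CpGs, the 2x samples ranged from 0.0% to 5.07% with a median of 0.0%, and the 4x samples measured 27.4%, 21.5%, 17.2% and 23.0%. The difference was 21.4 points (SE 2.22, limma adjusted p = 0.138). In the bin near Gm22606, with 4 CpGs, the 2x samples lay between 0.0% and 5.99%, and the 4x samples at 28.3%, 19%, 33.9% and 28.2%, a difference of 25.2 points (SE 2.93, adjusted p = 0.145). The bin beside it pointed the same way: 4.88% ± 9.35 (SD, n = 6) across 2x against 25.7% ± 3.68 (SD, n = 4) across 4x, with 1 of the 6 2x samples, at 23.3%, inside the 4x range. Here 0x resembled 4x, with means of 31.6% and 30.2% in the 2 adjacent bins, whereas 10x had 11.3% and 7.28%.

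Of the other bins higher in 4x, the exon bin of Tmem200c had a median of 0.0% in 2x (highest 23.7%) against 50%, 84.8%, 69.9% and 64.6% in 4x. The intron bin of Cit, the citron kinase of cytokinesis, had a median of 2.66% in 2x (highest 25%) against 48.8%, 74.9%, 67.9% and 65.9%. In both, every 4x sample lay above every 2x sample. The exon bin of Jph4, a junctophilin that ties the endoplasmic reticulum to the cell membrane, was at a median of 0.319% (highest 10.1%) against 21.4%, 33%, 24.9% and 24.5%. The intergenic bin 6233 bp upstream of B4galnt3, a glycosyltransferase, was at a median of 0.0% (highest 13.4%) against 70.5%, 47.8%, 45.2% and 38.0%. All 4 had 2x medians at or near 0.

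Of the other bins lower in 4x, the promoter bin of Lrrc10, a leucine-rich repeat protein of heart muscle, ranged from 84.1% to 100% in 2x against 57.9%, 48.0%, 63.1% and 53.9% in 4x. Intergenic DNA 59099 bp downstream of the start of Gm35803 ranged from 83.6% to 100% against 61.0%, 64.8%, 50% and 57.1%. An intron bin of Gm50270 ranged from 91.2% to 100% against 73.5%, 74.7%, 74.9% and 79.9%, and one near Gm39268 from 96.4% to 100% against 78.2%, 63.9%, 52.2% and 66.3%. These were the converse of the bins above, with full or nearly full methylation in 2x and lower levels in every 4x sample. The adjusted p of the 10 bins that were not called ran from 0.138 to 0.145.

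**Figure D1:**
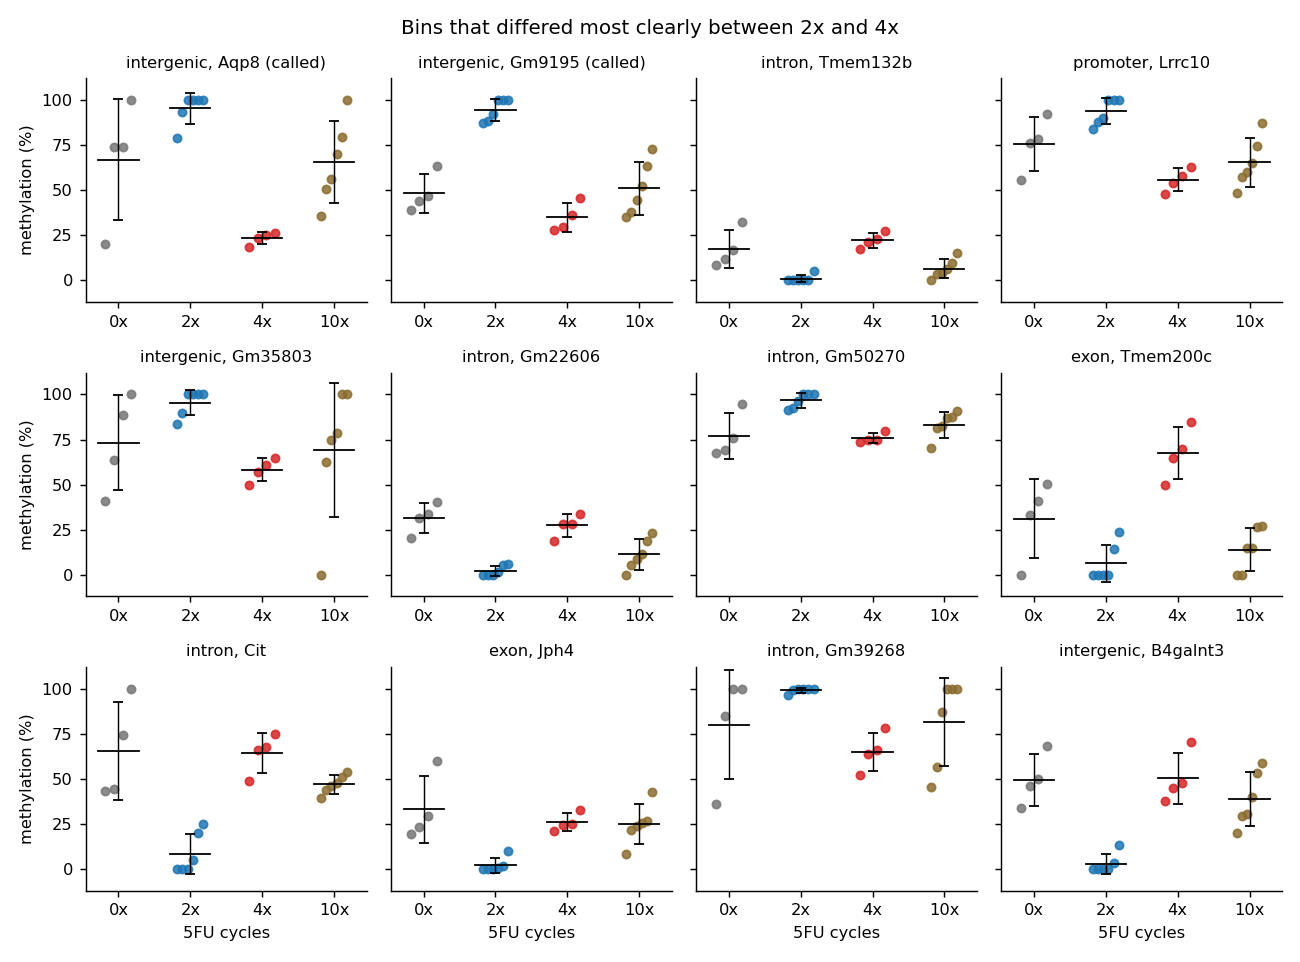
Methylation in percent (vertical axes) of each sample (points) by number of 5FU cycles (horizontal axes) in the 2 called bins and the 10 bins next in order of p, with the genomic class and nearest gene above each panel; long lines are group means and bars SD. In all 12 panels the 2x samples lie toward 0 or 100 and the 4x samples sit apart from them, while the 10x mean lies between the 2x and 4x means in all 12 and the 0x mean in 9.

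In all 12 of these bins the 2x mean was nearer to 0 or 100 than the 4x mean. The 2x values were at exactly 0 or 100 in 58.3% of cases, against 0.0% of the 4x values. Each of the 12 bins differed in the same direction within both label series, which follows from the lack of overlap of their samples. In the whole main set 2x was nearer the ends of the scale in 45.0% of bins, and 58.4% of 2x values and 39.2% of 4x values were at 0 or 100. The part of this difference in the results was not tested.

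At an unadjusted limma p under 0.05 and a difference of at least 10 points, 1011 bins were higher in 4x, 0.995% of those tested, and 1230 were lower, 1.21%. In all, 3104 bins had an unadjusted p under 0.05, which is 3.06% of bins, so these sets are described only. The bins higher in 4x went from a median of 14.8% in 2x to 50.6% in 4x, and those lower in 4x from 95.1% to 71.7%. Promoter bins were 28% of the higher and 12.3% of the lower bins, against 36.6% of the main set. Intergenic bins were 28.9% and 37.6% against 26.1%, and intron bins 31.2% and 38.3% against 27.1%. The lower bins held a median of 2 CpGs and the higher ones 3, against 4 in the main set. Both sets were thus poorer in promoters and in CpGs than the bins tested. No background of bins that differed by at least 10 points was read for these features, so the part of that demand was not tested. When both a bin of these sets and the bin directly beside it were in the main set (843 cases), the neighbor differed in the same direction in 55.8%, against 51.6% over all adjacent bins, with a median difference of 1.36 points in the bin's direction beside a median of 22.7 points in the bin itself. For bins of at least 10 points with a p of 0.05 or more the share was 55.4% over 6065 cases.

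A bin with a step between 2 and 4 cycles would have 0x on the 2x side and 10x on the 4x side. Among the 1934 of these bins with usable 0x and 10x values, taken by which of the 2x and 4x means was the nearer, 359 had this order, 18.6%, against 19.9% of all 81383 bins with such values. In 718, or 37.1%, both 0x and 10x were on the 4x side so that 2x stood alone (35.5% of all bins), in 462, or 23.9%, both were on the 2x side (26.6%), and in 395, or 20.4%, the order was the converse of a step (18%). In all 15283 bins that differed by at least 10 points, whatever their p, 0x and 10x were both on the 4x side in 40.9%. The 873 bins higher in 4x averaged 41.5%, 24.9%, 52.8% and 42.2% over the 0x, 2x, 4x and 10x samples. The 1061 lower bins averaged 71.0%, 87.2%, 62.4% and 73.6% in the same order. In each set the 0x and 10x means lay between those of 2x and 4x. In the lower bins every 10x sample (72.75% to 74.68%) was above every 0x sample (70.29% to 72.67%). The same held over the whole main set, at 52.69% to 53.24% in 10x and 51.42% to 52.65% in 0x. The distance of 2x from 4x in the 873 and 1061 bins follows from their choice. The 0x and 10x values entered that choice only by having to vary without repeats. A place between the chosen groups can itself follow from such a choice.

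**Figure D2:**
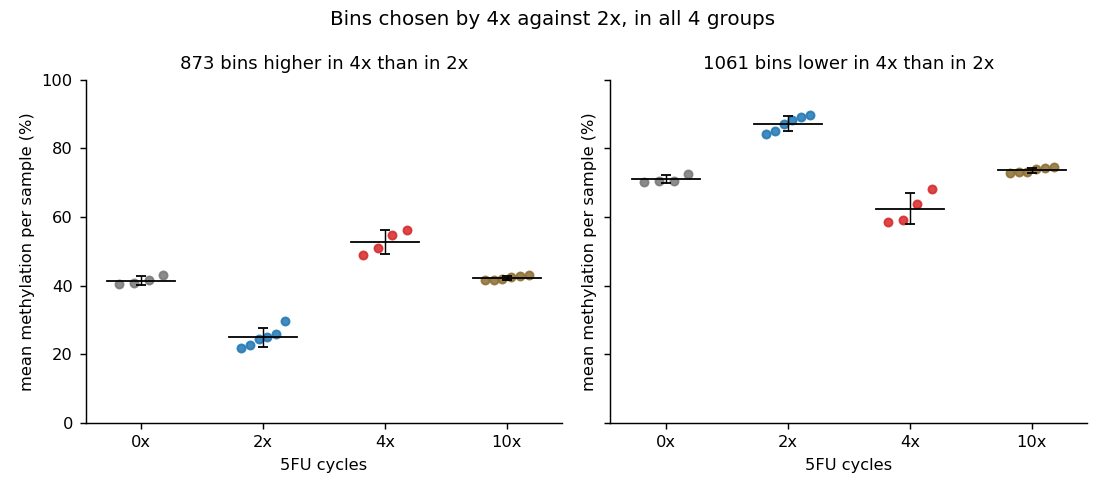
Mean methylation in percent (vertical axes) of each sample (points) over the bins with an unadjusted p under 0.05 and at least 10 points between 2x and 4x, for the 873 bins higher in 4x (left) and the 1061 bins lower in 4x (right), by 5FU cycles (horizontal axes); long lines are group means and bars SD. The 2x and 4x samples are apart by the choice of bins, and the 0x and 10x samples fall between them at 41.5% and 42.2% on the left and 71.0% and 73.6% on the right.

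Over the whole main set, methylation was 51.8% ± 0.664 (SD, n = 6) across 2x against 52.4% ± 0.125 (SD, n = 4) across 4x. The 2x samples measured 52.3%, 52.2%, 51.4%, 50.7%, 52.4% and 51.9%, and the 4x samples 52.3%, 52.4%, 52.3% and 52.6%. The 4x samples lay within or just above the upper part of the 2x range, and the difference of 0.605 points (SE 0.278) did not exceed the spread between samples (two-sided exact permutation test over 210 divisions, p = 0.1, where the smallest possible is 0.00476). It was 0.169 points within the label series 01 to 12 and 0.832 within 13 to 34, each with too few samples for a test to reach 0.05. In 189385 bins chosen by 0x and 10x alone, without regard to 2x and 4x, the difference was 0.153 points (SE 0.186, exact permutation p = 0.562). With repeated values set to missing it was -0.416 points (exact permutation p = 0.157), and without the demand that values differ within each group -1.69 points (exact permutation p = 0.00476). Without 2x replicate 17 the difference was 0.733 points (exact p = 0.0476), and without 2x replicate 16 it was 0.382 points (exact p = 0.111).

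**Figure D3:**
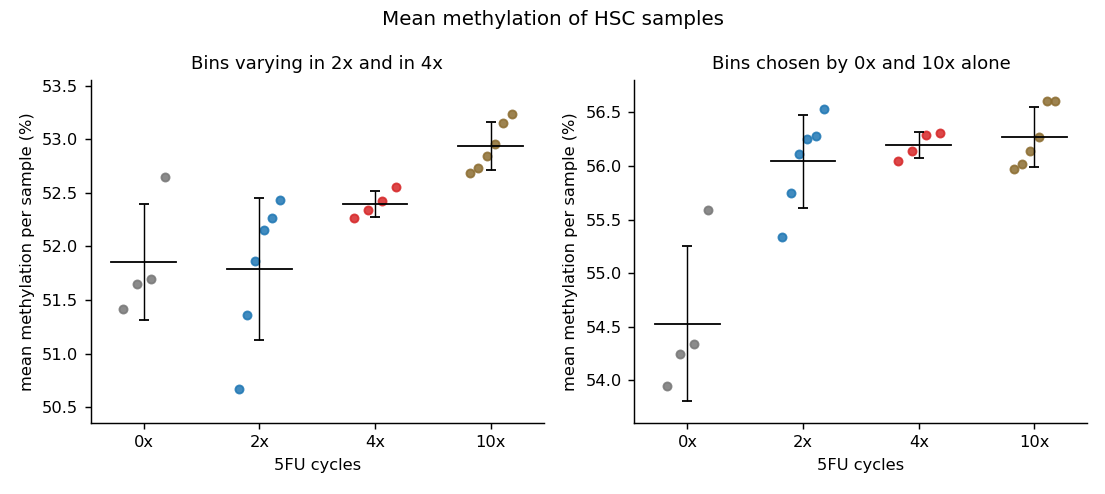
Mean methylation in percent (vertical axes) of each sample (points) by 5FU cycles (horizontal axes), over the bins that vary in 2x and in 4x (left) and over bins chosen by 0x and 10x alone (right); long lines are group means and bars SD. The 4x samples, with an SD of 0.125 points on the left, sit at the upper end of the wider 2x range.

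The change from 2 to 4 cycles was then set against the change from 0 to 2 cycles in the 87239 bins without repeated values in 0x, 2x and 4x. Mean methylation was 49.9% ± 0.622 (SD, n = 4) without 5FU, 50.3% ± 0.639 (SD, n = 6) after 2 cycles and 50.8% ± 0.145 (SD, n = 4) after 4. The first interval added 0.40 points and the second 0.513. They differed by 0.113 points, which is within the spread of samples (two-sided exact permutation test over 210210 divisions, p = 0.859). With repeated values set to missing, so that 363013 bins entered, 2x was 1.19 points above 0x and 4x minus 2x was -0.485 points, a contrast of -1.68 points (exact permutation p = 0.0153).

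By genomic class, promoter bins (within 1000 bp of a transcription start) were less methylated in 4x and bins of all other classes more, but none of the 8 classes passed the correction over classes. Promoter bins went from 13.4% ± 0.180 (SD, n = 6) to 13% ± 0.164 (SD, n = 4), a difference of -0.342 points (exact permutation p = 0.0238, adjusted p = 0.0762). Exon bins went from 70.4% ± 0.549 (SD, n = 6) to 71.4% ± 0.209 (SD, n = 4), a difference of 0.987 points (exact permutation p = 0.00952, adjusted p = 0.0762). Intron bins differed by 1.24 points, bins of 3' untranslated regions by 1.24, intergenic bins by 1.14, non-coding genes by 0.785, 5' untranslated regions by 0.765 and transcription termination sites by 0.658, with adjusted p between 0.0762 and 0.290. With a promoter window of 500 bp, promoters (-0.422 points) and exons (0.83) passed, each at an adjusted p of 0.0381. In the bins chosen by 0x and 10x alone the promoter difference was 0.0647 points, and no class passed (lowest adjusted p = 0.419). With repeated values set to missing the direction of all 8 classes turned, with promoters at 0.252 points, exons at -0.516, introns at -0.690 and intergenic bins at -0.672, and again none passed.

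Bins were then split by methylation level, set for each bin by the mean of its 2x and 4x group means unless stated otherwise. The compared samples thus set the levels and also chose the main set, so a pass is not independent of that choice. In the main set only the bins under 20% passed. Over 40305 such bins the 2x mean was 4.64% ± 0.111 (SD, n = 6) and the 4x mean 4.10% ± 0.278 (SD, n = 4), without overlap of the samples, a difference of -0.540 points (exact permutation p = 0.00476, adjusted over 3 levels 0.0143). Bins of 20 to 80% differed by 1.39 points (exact permutation p = 0.224), and bins over 80% by 1.35 points (exact permutation p = 0.0619, adjusted p = 0.0929). The direction of the call depended on which bins were used. In the bins chosen by 0x and 10x alone, those under 20% were higher in 4x by 0.417 points (adjusted p = 0.0143), and in all deposited bins that vary by 0.775 points (adjusted p = 0.00476). Levels set by the 0x mean in the bins chosen by 0x and 10x alone left 0.0911 points (adjusted p = 0.486), and the adjusted p was 0.0714 to 0.0952 without 2x replicate 04, 15, 17 or 18. Without 4x replicate 06 the difference was -0.813 points.

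**Figure D4:**
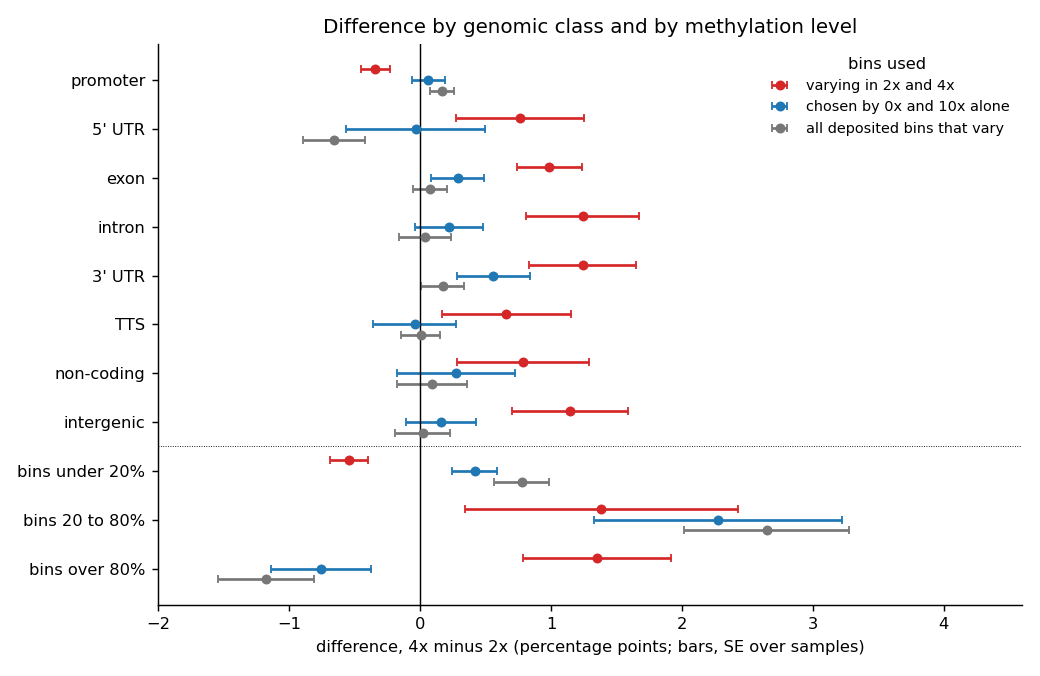
Difference in mean methylation, 4x minus 2x, in percentage points (horizontal axis) for 8 genomic classes and 3 methylation levels (vertical axis), over the main set (red), bins chosen by 0x and 10x alone (blue) and all deposited autosomal bins that vary (gray); bars are SE over samples. Bins under 20% are lower in 4x in the main set (-0.540 points) and higher in the other sets (0.417 and 0.775 points), and the promoter class changes sign too, from -0.342 points to 0.0647 and 0.167.

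Promoters were next read gene by gene as the mean of the bins within 1000 bp of a start. Of 15406 genes with a promoter bin in the main set 0 were called (limma adjusted p under 0.05, 0.0% of genes), with the lowest adjusted p at 0.0874. At an unadjusted limma p under 0.05, 295 genes were higher in 4x (1.91%) and 165 lower (1.07%). With log2 ratios of the percents 3 promoters were called, and 1 with all 4 groups in the fit or without 2x replicate 15, 4x replicate 05 or 4x replicate 20. The median difference over all genes was -0.324 points, with 6801 promoters higher and 8605 lower in 4x.

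The 5 promoters with the smallest p among those higher in 4x were Gm38585, Nradd, Kif27, Anpep and Nodal. Anpep encodes aminopeptidase N (CD13) of myeloid cells. Its 2x samples measured 0.0%, 0.0%, 13.2%, 0.0%, 0.0% and 11.9%, and its 4x samples 48.4%, 19%, 29.2% and 28.2%, without overlap (difference 27.0 points, SE 5.50, limma adjusted p = 0.994). Nodal, a TGF-beta family ligand of embryonic patterning, was at 0.0% in 4 of the 6 2x samples with a highest value of 9.90%, and at 11.3%, 12.8%, 18.4% and 12.5% in 4x (difference 11.3 points, SE 2.37). Nradd, a relative of the neurotrophin receptor with a death domain, had 27.6% in 2x replicate 15, 9.17% in replicate 18 and 0.0% in the other 2x samples, against 33.1% to 40.9% in 4x. Kif27, a kinesin motor protein, ranged from 0.0% to 10.0% in 2x and from 10.0% to 22% in 4x, so that the groups touched. Its difference lay in the bin at chr13:58358600-58358699, at 29.7 points, with the adjacent bin at -0.518. Gm38585 had the smallest p of all promoters, with 2x at 0.119% ± 0.264 (SD, n = 6) and 4x at 8.73% ± 1.45 (SD, n = 4), a difference of 8.61 points that stayed above the threshold (limma adjusted p = 0.0874).

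Among promoters lower in 4x, the smallest p values were those of Gm829, Mir142b, Mir142, Gm42011 and Gm50270. Gm829 went from 99.7% ± 0.567 (SD, n = 6) to 82.0% ± 5.46 (SD, n = 4), a difference of -17.7 points (limma adjusted p = 0.105). Gm42011 differed by -15.8 points from 99.7%, and Gm50270 by -16.8 points from 97.7%. All 3 are predicted genes, each with 1 bin and near full methylation in 2x, and only in Gm50270 did the groups overlap.

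Mir142 encodes a microRNA of blood cells, and Mir142b lies on the opposite strand of the same locus. Both were read from the same 3 bins downstream of the hairpin of Mir142, so they are the same measurement. The starts used were those of the annotated microRNA records, and whether these bins act as a promoter was not tested. The mature sequences are shown from RefSeq (GRCm38.p6), with the seed (bases 2 to 8) in capitals. The 3 seeds differ from each other.
mmu-miR-142a-5p: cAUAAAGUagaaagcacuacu
mmu-miR-142a-3p: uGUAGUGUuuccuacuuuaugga
mmu-miR-142b: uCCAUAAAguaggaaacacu
The bins at both ends, which differ most, read as follows, with CpGs in capitals on the plus strand of mm10.
chr11:87757100-87757199: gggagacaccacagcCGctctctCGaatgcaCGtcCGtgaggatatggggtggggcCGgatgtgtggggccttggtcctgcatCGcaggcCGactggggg
chr11:87757300-87757399: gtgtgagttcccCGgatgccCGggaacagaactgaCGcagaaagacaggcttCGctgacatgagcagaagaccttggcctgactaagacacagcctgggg

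The mean of the 3 bins was 56.7%, 66.7%, 49.3%, 50.4%, 55.2% and 39.4% in the 2x samples and 26.3%, 26.1%, 23.9% and 33.6% in the 4x samples. The groups did not overlap, and the difference was -25.5 points (SE 4.6, limma adjusted p = 0.994). Single bins varied far more than their mean. The first bin, with 7 CpGs, was 63.8% ± 27.2 (SD, n = 6) across 2x against 36.6% ± 16.3 (SD, n = 4) across 4x, and the third, with 4 CpGs, 68.1% ± 36.7 (SD, n = 6) and 25.1% ± 13.9 (SD, n = 4). The middle bin was 27.0% in 2x and 20.7% in 4x. All 3 bins overlapped between the groups. The 0x and 10x means over these bins were 37.8% and 42.2%, between those of 2x and 4x.

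Gene lists were read on the same promoters. In 23 lists of pathways, cell types and gene families, 442 genes were measured, of which 11 were higher and 3 lower in 4x at an unadjusted p under 0.05. These are 3.17% of the genes, against 2.99% of all promoters tested, and 15 of the 23 lists had none. By direction, 1.91% of all promoters were higher and 1.07% lower at this p, the base for the counts per list below. In the 8 lists with such a gene the share ran from 3.125% to 12.5% of the genes measured, and no list was tested as a set. No member was called after correction, and the values below are given as a description. The median difference was below 0 in 19 lists and above 0 in 4, beside -0.324 points for all genes.

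Of 36 Hox genes, which set position along the body axis and include regulators of HSCs, 3 (8.33%) were higher at an unadjusted p under 0.05 and none lower. Over all promoters 1.91% were higher and 1.07% lower. The list median was 0.714 points. Hoxc4 (1 bin) measured 0.0%, 0.0%, 0.0%, 35.2%, 23.3% and 17.5% in 2x and 45.9%, 35.2%, 41.4% and 43.3% in 4x, a difference of 28.8 points (SE 7.30, limma adjusted p = 0.994), and the lowest 4x sample was level with the highest 2x sample. Hoxb1 (1 bin) was at 0.0% in all 2x samples but replicate 15 with 0.893%, and at 25.3%, 25.8%, 24.9% and 0.0% in 4x. For Hoxb1, 1 of the 4 4x samples thus matched 2x. Hoxc11, named after its value was seen, was higher by 2.83 points over 5 bins, with 2x at 1.16% to 4.0% and 4x at 4.28% to 7.50%. Its single bins differed by -1.12 to 6.20 points. Hoxd10 and Hoxb2 had the lowest differences, -5.07 and -3.65 points.

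Among 20 HSC transcription factors 2 were higher at an unadjusted p under 0.05. Bmi1, a Polycomb repressive complex 1 (PRC1) subunit needed for HSC self-renewal, measured 10.8%, 10.4%, 11.4%, 0.774%, 21.6% and 11.3% in 2x and 18.1%, 18.8%, 19.9% and 21.5% in 4x, a difference of 8.54 points (SE 3.25, limma adjusted p = 0.994), with 2x replicate 17 above the 4x samples. One of its 5 bins carried this difference, the bin at chr2:18678600-18678699, at 49.6% ± 31.6 (SD, n = 6) across 2x against 88.2% ± 8.08 (SD, n = 4) across 4x, while the other 4 differed by -0.623 to 2.28 points. Tal1, a factor required to form HSCs and named after its value was seen, was higher by 3.24 points over 7 bins. Its bin at chr4:115059800-115059899, with 1 CpG, differed by 12.6 points, and the other bins by -1.63 to 4.41 points. Gata2 differed by 12.3 points (SE 8.81) and Erg by -4.31, neither with a p under 0.05. Bmi1 was also the only one of the 20 genes measured in the list of PRC1 and Bcl6 genes at an unadjusted p under 0.05. Bcor, a corepressor of that list, lies on the X chromosome and so outside the autosomal bins. There Cbx2 differed by 3.35 points, Cbx8 by -11.2 and Pcgf1 by -8.21.

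None of the 11 measured genes of Polycomb repressive complex 2 (PRC2), which methylates histone H3 at lysine 27, had a p under 0.05, with a median of -0.861 points. Phf1 and Jarid2 had the highest differences, 2.12 and 1.26 points, and Aebp2 and Suz12 the lowest, -4.90 and -2.31 points. Of 64 developmental transcription factors, many of which are PRC2 targets, 2 were higher: Bhlhe22 by 2.60 points and Msx2 by 2.58, both named after their values were seen. Dlx6 (6.34 points), Lhx3 (6.01), Nkx2-5 (-8.94) and Lhx5 (-7.47) were at the ends of that list. None of 14 DNA methylation writers and erasers had a p under 0.05, with Tet1 at 2.17 points, Mbd4 at -6.74 and Mbd2 at -3.84.

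In the Wnt pathway, which acts in stem cell renewal, 2 of 42 genes were higher at an unadjusted p under 0.05. The ligand Wnt10a was at 0.0% to 6.43% in 2x and at 7.27%, 7.01%, 1.25% and 20% in 4x (difference 7.50 points, SE 3.22). Ctnnb1, encoding beta-catenin and named after its value was seen, was at 3.24% ± 2.60 (SD, n = 6) across 2x against 9.24% ± 4.92 (SD, n = 4) across 4x. Its difference lay in the bin at chr9:120933100-120933199, with 10.2% in 2x and 40.7% in 4x, the other 4 bins differing by -1.09 to 0.346 points. Tcf7 differed by 6.70 points, Wnt2b by -6.09 and Wnt9b by -5.05.

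Of 27 genes of cAMP signaling 1 was higher and 1 lower. Pde4c, a phosphodiesterase that breaks down cAMP, was at 55.7% ± 7.92 (SD, n = 6) across 2x against 69.3% ± 6.98 (SD, n = 4) across 4x, and Adcy3, an adenylyl cyclase that makes it and was named after its value was seen, at 15.2% ± 3.28 (SD, n = 6) and 9.82% ± 2.57 (SD, n = 4). For Pde4c the difference lay mostly in the bin at chr8:70742900-70742999, at 24.6 points, with its other bin at 2.61. Gnas differed by 5.13 points, Pde1a by -17.9 and Prkaca by -6.82. Of 31 genes of the p53 and DNA damage response 1 was lower, Mdc1, which binds phosphorylated histone H2AX at breaks and was named after its value was seen. Its 2x samples lay between 2.17% and 9.91% and its 4x samples between 0.0% and 0.999%, without overlap. Mdm4 differed by 5.15 points, Gadd45g by 4.76, Pmaip1 by -9.82 and Ppm1d by -7.43.

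Of 16 pluripotency genes 1 was higher and 1 lower. Esrrb went from 1.5% ± 2.27 (SD, n = 6) to 6.03% ± 4.0 (SD, n = 4), and Dppa3, a gene of the early embryo and germline, from 88.0% ± 8.43 (SD, n = 6) to 68.8% ± 20.4 (SD, n = 4). Prdm14 differed by 4.54 points and Klf5 by -11.6. Of 12 germline genes, whose promoters are mostly methylated in blood, 10 were higher and 2 lower, with none at p under 0.05. Their median was 89.1% in 2x and 95.8% in 4x, with Rpl10l at 10.5 points, Sycp2 at 8.21, Slc25a31 at -2.61 and Dazl at -1.17. Among 19 imprinted genes, in which 1 parental copy is methylated, none had a p under 0.05. Sgce and Peg10 share 1 bin that differed by 32.8 points, with SDs of 41.7 in 2x and 23.8 in 4x, while Peg3 differed by -13.8 and H19 by -8.74.

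No promoter had an unadjusted p under 0.05 in the lists of fluorouracil metabolism, cell cycle inhibitors, the BCL2 family, or telomerase and shelterin. Of 13 genes of fluorouracil metabolism and uracil repair 10 were lower and 3 higher in 4x, with a median of -2.53 points, where 44.1% of all promoters were higher. Dpyd, the enzyme that degrades 5FU, differed by -8.44 points (SE 5.57), Rrm1 by -7.30 and Ung by 0.288. Of 13 cell cycle inhibitors Cdkn2b differed by 3.70 points, Cdkn1b by 0.53, Cdkn3 by -3.85 and Cdkn2d by -3.26. Of 15 genes of the BCL2 family Bik differed by 6.73 points, Bcl2l1 by 4.43, Pmaip1 by -9.82 and Bbc3 by -3.03. Of 14 genes of telomerase and shelterin Pot1a differed by 5.57 points, Terf1 by 3.75, Terf2ip by -2.99 and Ctc1 by -2.51.

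The following 7 lists also held none. Of 13 myeloid and erythroid transcription factors Cebpe differed by 8.59 points, Egr1 by 1.57, Nfe2 by -3.40 and Klf1 by -2.18. Of 16 lymphoid factors Tcf7 differed by 6.70, Ikzf2 by 3.09, Bcl11b by -4.83 and Foxo1 by -1.93. Of 4 measured markers of mature blood cells, which bear on the purity of the sort, Mpo differed by 18.9 points, Epor by 9.03 and Itgb3 by -8.26, with SDs of up to 39.9 points within a group. Of 5 measured surface and niche genes of HSCs Cd34 differed by 0.547, Itga2b by -8.04, Cd9 by -0.962 and Flt3 by -0.364. Of 18 drivers of clonal hematopoiesis Gnas differed by 5.13, Jak2 by 1.62, Ppm1d by -7.43 and Idh1 by -7.41. Of 11 genes raised in old HSCs Clu differed by 2.28, Egr1 by 1.57, Itgb3 by -8.26 and Enpp5 by -3.46. Of 36 genes of the cytoskeleton and integrins Rac1 differed by 3.82, Cfl1 by 2.28, Itgal by -13.3 and Tln1 by -9.83.

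**Figure D5:**
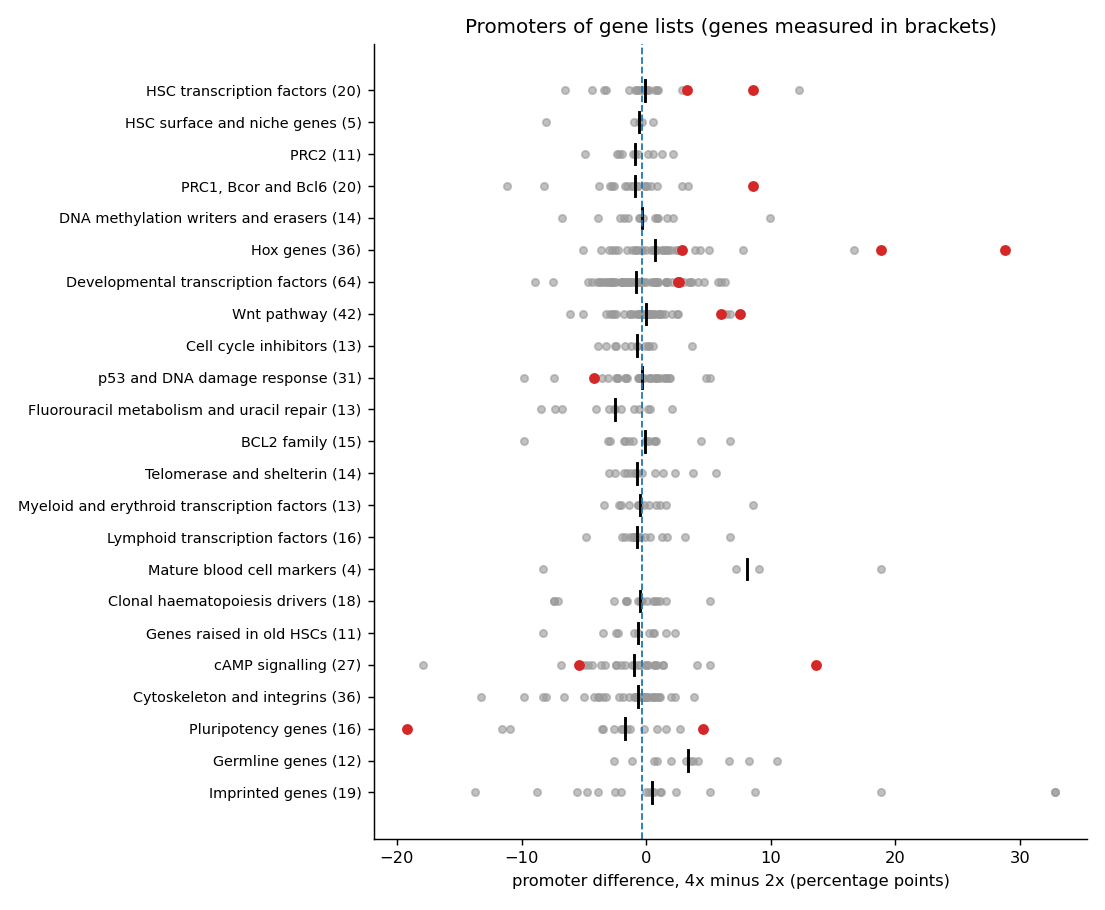
Promoter difference, 4x minus 2x, in percentage points (horizontal axis) for each measured gene (points) of 23 lists (vertical axis, number of genes in brackets); red points have an unadjusted p under 0.05, black marks are list medians and the dashed blue line is the median of all 15406 promoters, -0.324 points. Red points are found in 8 of the 23 lists, and none was called after correction. Most of them lie to the right, as did most promoters at this p over all genes (295 higher and 165 lower in 4x).

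The study names 20 autosomal genes for promoter hyper- or hypomethylation after 5FU relative to untreated HSCs. It describes their change as shared by the treated groups whatever the number of cycles. Of these genes, 15 had a promoter bin in the main set, and none had an unadjusted p under 0.05 between 4x and 2x. Little change between 4x and 2x is what that description foresees, so this result does not contradict it. The study separately reports genes changed in 4x and the group with more cycles but not in 2x, and names Bcor with them. Those genes would bear on a step between 2x and 4x, but they were not read as a list here. Bcor is X-linked and was not analysed. The study chose the 20 named genes on these samples. Among 6 of the genes it lists as hypermethylated, Cebpe differed by 8.59 points, Grb2 by 0.919, Eif4ebp1 by 0.530, Rara by 0.260, Flt3 by -0.364 and Il3 by -17.6. Among 9 of those it lists as hypomethylated, Pparg differed by 1.95 points, Tert by 0.688, Cdkn1b by 0.53, Wnt3a by 0.367, Wnt7a by 0.191, Terc by -0.378, Cdkn2a by -0.751, Wnt5a by -2.45 and Itga3 by -4.98. Most of these promoters were near unmethylated in both groups, with medians of 3.79% in 2x and 3.8% in 4x for the first list and 3.99% and 2.63% for the second. The 2 with the largest differences also varied most within a group, Il3 with SDs of 25.9 and 25 points and Cebpe with 35.0 and 12.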

How the data were processed

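The submitters' notes name Trim Galore 0.4.3, Bismark 0.23.1 and methylKit 1.22.0, with mm10 as the genome. The authors deposited percent methylation per 100-bp bin and sample, with missing bins filled by the mean of the group, per the study's methods. Filled values are not marked. A repeated value equalled the plain mean of the other samples (within 0.01 points) in 1.45% of such 2x bins and 2.71% of such 4x bins, so a single filled value cannot be recognised. Bins holding a value other than 0 or 100 more than once in a group were left out. Percents were compared with limma 3.58.1 in R 4.3.3 (lmFit, eBayes) and with exact permutation tests in Python 3.11.15. The limma fit was tried on simulated data with normal errors, which, unlike these data, do not pile up at 0 or 100. Classes and promoters came from the RefSeq annotation of GRCm38.p6. Bins were called at an adjusted p under 0.05 and 10 points, promoters at the adjusted p alone. Named were called bins, the 10 next by p without overlap, the 5 promoters with the smallest p each way, 2 members of each list at either end, and every gene of 2 lists made from the genes the study names. A few list members that this rule names are not reported here. Members, lists and tests were chosen with earlier results of these data known. No coverage was given, so the depth per sample is unknown. Alternatives changed the set of bins, the test, the block, the promoter window and the samples.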

Additional observations from a re-analysis of the deposited data

Results flagged for a closer look

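In 70 groups of samples looked at, 11 held a sample far from the others (Dixon's criterion), a criterion that flags about 5% of groups by chance when values are normally distributed, whereas many of these groups hold ties at 0 or 100. In 4x, replicate 20 had 75.7% over intron bins (others 75.1% to 75.2%), and replicate 19 had 60.5% over non-coding bins (others 61.3% to 61.5%). In 2x, the bin near Aqp8 was at 78.7% in replicate 18, against 93.4% to 100% in the others. The bin near Tmem132b was at 5.07% in replicate 16 (others up to 0.295%), that near Jph4 at 10.1% in replicate 04 (others up to 1.98%), that near Gm39268 at 96.4% in replicate 17 (others at least 99.3%) and that near B4galnt3 at 13.4% in replicate 16 (others up to 3.64%). Among promoters, 2x replicate 15 stood apart at Gm38585 with 0.656% (others up to 0.0598%), at Nradd with 27.6% (others up to 9.17%) and at Gm50270 with 89.9% (others at least 96.3%). At Kif27, 2x replicate 17 had 10.0% (others up to 2.70%).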

How the results depend on the processing

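The set of bins decided most results. With all deposited autosomal bins that vary, 101028 bins and 5215 promoters were called and 3 levels passed. With repeated values set to missing these were 9780, 914 and 3, and without the demand that each group varies 9781, 1223 and 3, with 8 classes passing. Bins chosen by 0x and 10x alone gave 2009 called bins and 138 promoters, and there 0 levels passed with levels set by 0x. The bins without any value at 0 or 100 gave 0 called bins and 2 levels, those without repeated values in all 4 groups 1 bin, and those with sex chromosomes 4 bins. Log2 ratios gave 0 bins and 3 promoters, a variance trend 0 bins, all 4 groups in one fit 1 promoter, a 500 bp window 2 classes, and levels set by 0x 2 levels.

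The mean difference turned to -0.416 points with repeated values missing and to -1.69 without the demand that groups vary, and was 1.51 without values at 0 or 100. The step contrast turned to -0.789 (all deposited), -1.68 (repeats missing), -0.453 (bins chosen by 10x alone) and -0.0896 (label series as a block). The promoter class turned to 0.167 (all deposited), 0.252 (repeats missing), 0.512 (no value at 0 or 100), 0.0647 (bins chosen by 0x and 10x) and 0.545 (groups need not vary). In the last set and with repeats missing, the classes that were higher in 4x turned, respectively, to -1.61 and -0.859 (5' untranslated regions), -1.85 and -0.516 (exon), -2.64 and -0.690 (intron), -2.32 and -0.576 (3' untranslated regions), -1.96 and -0.520 (termination sites), -2.52 and -0.737 (non-coding) and -2.65 and -0.672 (intergenic). 5' untranslated regions were also at -0.659 in all deposited bins and -0.0343 in bins chosen by 0x and 10x, and termination sites at -0.0409 in the latter. Bins under 20% turned to 0.775 (all deposited), 1.30 (repeats missing), 0.0014 (no value at 0 or 100), 0.417 and, with levels by 0x, 0.0911 (bins chosen by 0x and 10x) and 2.26 (groups need not vary). Bins over 80% turned to -1.18, -2.60, -0.755 and -5.06 in all deposited bins, with repeats missing, in bins chosen by 0x and 10x and where groups need not vary. The promoter of Gm42011 was at 1.92 in the bins chosen by 0x and 10x. The cause of these changes was not tested.

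Leaving out each sample in turn gave a mean difference of 0.382 to 0.733, a step contrast of -0.307 (without 2x replicate 16) to 0.361, negative also without 2x replicate 15 (-0.0715), 1 to 9 called bins, 0 to 1 promoters, 0 classes and 0 to 2 levels (0 without 2x replicate 04, 15, 17 or 18, and 2 without 4x replicate 06). The choices of bins by 0x and 10x or 10x alone, and the set in which groups need not vary, were added after the data were seen. No paired analysis was possible because the groups share no replicate numbers. Without coverage, differences of a few points in single bins could not be weighed against counting error.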
